A study of Homo sapiens with 8 samples.

Results

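The genes SRPK1, SRPK2, CLK1, CLK2, CLK3, CLK4, DYRK1A and PRPF4B code for kinases that phosphorylate SR proteins, and their messenger RNA levels were followed in A549 cells. The 8 genes were chosen by name from 60624 genes with counts, and all 8 were among the 18661 genes with enough counts to be tested. A549 is an established human lung adenocarcinoma line. The cells were left untreated or were treated with indisulam, with SPHINX31 or with both compounds, called the combination. Indisulam is a molecular glue that brings the splicing factor RBM39 to the DCAF15 ubiquitin ligase, and SPHINX31 inhibits the kinase activity of SRPK1. The study cites a report that SPHINX31 also acts on CLK1 and SRSF2. Each group held 2 libraries of polyadenylated RNA that the series calls technical duplicates, so the p-values below measure only the spread between such duplicates. By the study's methods indisulam was used at 0.5 μM and SPHINX31 at 5 μM over 24 h. The labels of all 8 libraries, untreated ones among them, carry a treatment of 2 μM indisulam for 18 h. The methods give that treatment for another experiment, in Panc10.05 cells.

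SR proteins are splicing factors with a tail rich in serine and arginine, and phosphorylation of that tail governs where they are and what they bind. SRPK1 and SRPK2 act mainly in the cytoplasm and prepare SR proteins for import into the nucleus. The CLK kinases act in the nucleus, add further phosphates and release SR proteins from nuclear speckles. DYRK1A is a related dual-specificity kinase that phosphorylates several splicing factors, and PRPF4B is a kinase associated with the spliceosome itself. CLK1 and CLK4 are known for transcripts that keep introns in the nucleus. The counts used here are per gene, so spliced and intron-retaining transcripts of a gene were not separated, and neither protein nor kinase activity was measured.

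The 4 CLK genes are paralogs, named LAMMER kinases after a short signature in the kinase domain. The stretches below, 60 bases of coding sequence from exon 11 of each canonical transcript (GENCODE on GRCh38), are shown because they let a reader see how far the paralogs differ around that signature. Capitals mark the codons at the signature, which read LAMMER in CLK1, CLK2 and CLK4 and LVMMEK in CLK3. Each sequence runs 5′ to 3′ on the strand of the gene. They lie at chr2:200854636-200854695 (minus strand) in CLK1, chr1:155264241-155264300 (minus) in CLK2, chr15:74628604-74628663 (plus) in CLK3 and chr5:178605323-178605382 (minus) in CLK4.
CLK1: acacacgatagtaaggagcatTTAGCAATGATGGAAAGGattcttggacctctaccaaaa
CLK2: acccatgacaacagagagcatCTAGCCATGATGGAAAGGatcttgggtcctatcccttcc
CLK3: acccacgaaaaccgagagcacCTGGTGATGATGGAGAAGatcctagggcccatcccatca
CLK4: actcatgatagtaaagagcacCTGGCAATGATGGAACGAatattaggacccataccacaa
CLK1 and CLK4 shared 46 of these 60 bases and CLK2 and CLK3 shared 45, whereas the other pairs shared 38 to 41. Over the whole coding sequence CLK1 and CLK4 were 77.1% identical, SRPK1 and SRPK2 67.2% and CLK2 and CLK3 66.7%. The longest run of bases shared by any of these pairs of transcripts was 34, between CLK1 and CLK4, against reads of 150 bases in the methods.

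The libraries held 51727369 to 63186989 counts on genes (median 57337791), which were 83.0% to 86.0% of the reads recorded. The lowest count of any of the kinase genes was 515, for CLK4, and the highest 7883, for SRPK1. Levels are given in CPM, the count of a gene scaled to a common library total, after adjustment of the library sizes with the TMM method. The epithelial identity of the line was seen in 6 of 6 epithelial markers above 1 CPM in every group, with summed levels of 8640 to 9840 CPM. Summed fibroblast, leukocyte and endothelial markers reached at most 4.83, 9.65 and 2.6 CPM, and CD3E was at 0 in every group, DCN in untreated cells, COL3A1 with indisulam and COL1A2 with the combination. RBM39 RNA was 154 and 157 CPM in untreated cells, 361 and 360 with indisulam, 166 and 184 with SPHINX31 and 373 and 391 with the combination. Its log2 fold change was 1.22 with indisulam (SE 0.0553, edgeR adjusted p = 5.41e-09); RBM39 protein, which indisulam degrades, was not measured here.

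Compared per kilobase of exon, SRPK1 had the highest level of the kinase genes in untreated cells. The levels in CPM per kilobase of merged exons (mean ± SD, n = 2) were 19.2 ± 0.214 for SRPK1, 12.9 ± 0.395 for CLK2, 8.59 ± 0.337 for PRPF4B and 7.37 ± 0.277 for SRPK2. CLK1 followed with 5.21 ± 0.326, CLK3 with 1.72 ± 0.00749, DYRK1A with 1.39 ± 0.019 and CLK4 with 1.13 ± 0.00362. No neighbours in this order overlapped between their untreated libraries. The order was the same with SPHINX31, where the libraries of PRPF4B and SRPK2 overlapped. With indisulam and with the combination PRPF4B stood above CLK2, CLK1 stood above SRPK2, and CLK4 stood above CLK3 and DYRK1A on the same scale. Under indisulam the libraries of PRPF4B and CLK2 overlapped, and under the combination those of CLK1 and CLK2 and those of CLK4 and CLK3 did. The length used moved this order: per kilobase of the canonical transcript CLK3 stood at 18.3 in untreated cells and at 29.4 with the combination, above SRPK1 at 25.1.

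**Figure D1:**
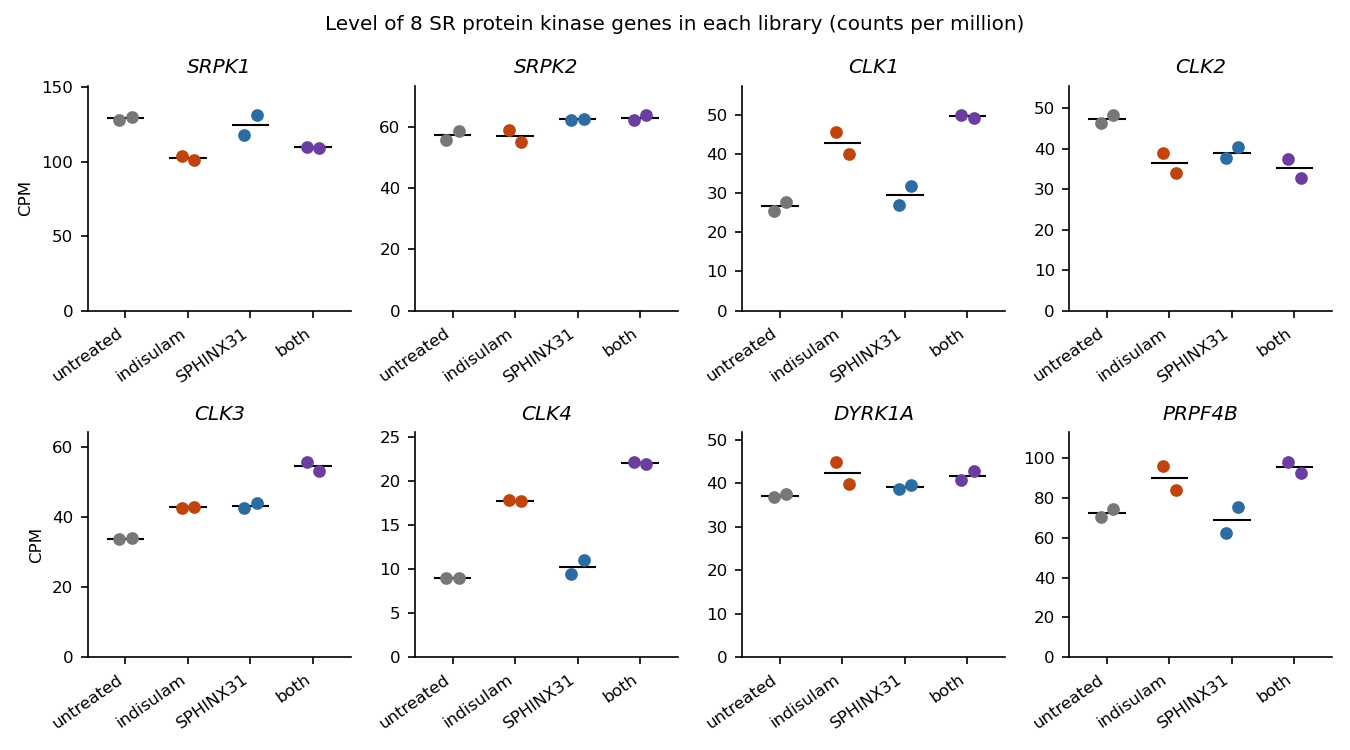
Level of each kinase gene (vertical axes, CPM, starting at 0 and scaled per gene) in the untreated, indisulam, SPHINX31 and combination ("both") libraries; points are single libraries and bars the mean of 2. CLK1 and CLK4 were higher in all 4 libraries with indisulam than in the other 4, SRPK1 and CLK2 were lower with indisulam than in untreated cells, and SRPK2 and DYRK1A lay within 54.9 to 63.7 and 36.7 to 44.9 CPM.

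The question put to each gene was whether its RNA changed with either compound or with both. With indisulam 5 of the 8 kinase genes rose (CLK1, CLK3, CLK4, DYRK1A and PRPF4B), 2 fell (SRPK1 and CLK2) and SRPK2 did not pass the test. Over all tested genes 43.7% passed the same test, 20.1% as higher and 23.5% as lower, so a changed gene was common in this comparison. The median log2 fold change was 0.26 over the kinase genes and -0.00 over all tested genes. In bulk RNA, fewer cells of a kind and less RNA per cell cannot be told apart. The share of reads outside annotated features was also higher with indisulam (5.48% and 4.49%) and the combination (5.87% and 4.87%) than in untreated cells (3.94% and 4.34%), and its part in these results was not tested.

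SRPK1, a kinase that SPHINX31 inhibits, fell with indisulam. It stood at 128 and 130 CPM in untreated cells, 104 and 101 with indisulam, 118 and 131 with SPHINX31 and 110 and 109 with the combination. The indisulam and combination libraries lay below all untreated libraries, whereas the SPHINX31 libraries overlapped them. With indisulam the log2 fold change was -0.33 (SE 0.0555, edgeR quasi-likelihood test with Benjamini-Hochberg adjustment, adjusted p = 0.000342), a level 0.796 times that of untreated cells, and it passed in 8 of 8 fits that each left out 1 library. With the combination SRPK1 fell by 0.23 on the log2 scale (SE 0.0553, edgeR adjusted p = 0.00318), again in 8 of 8 such fits. With SPHINX31 alone the difference was -0.04 (95% interval -0.16 to 0.08, edgeR adjusted p = 0.683). Here and below, fits that left out a library of a group not compared kept both compared groups whole and were a weaker check. SRPK1 shares 1879 exon bases with LHFPL5 on the opposite strand, which had 8 to 46 counts per library. That was at most 0.599% of the SRPK1 count. LHFPL5 also fell with indisulam (log2 fold change -1.11, edgeR adjusted p = 0.0164) and the combination (-1.40, adjusted p = 0.0042). With SPHINX31 it did not pass.

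SRPK2, the paralog expressed beside SRPK1, did not pass the test against untreated cells with any treatment. Its levels were 55.7 and 58.7 CPM in untreated cells, 59.0 and 54.9 with indisulam, 62.2 and 62.5 with SPHINX31 and 62.2 and 63.7 with the combination. The indisulam libraries overlapped the untreated ones, whereas the SPHINX31 and combination libraries lay above them. The log2 differences were -0.01 with indisulam (95% interval -0.13 to 0.12, edgeR adjusted p = 0.95), 0.13 with SPHINX31 (0.01 to 0.25, adjusted p = 0.187) and 0.14 with the combination (0.02 to 0.26, adjusted p = 0.0532). The last lay beside the threshold: it passed when an indisulam library (adjusted p = 0.0470 without replicate 1 and 0.0467 without replicate 2) or a SPHINX31 library (0.0381 and 0.0382) was left out, and under 7 of the other settings, with adjusted p-values from 0.0085 (GC offset) to 0.0489 (RLE size factors). SRPK2 shares 369 exon bases with KMT2E on the opposite strand, which had 3432 to 4334 counts per library and did not pass in any of these comparisons.

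CLK1 rose in every library with indisulam. It stood at 25.5 and 27.8 CPM in untreated cells, 45.6 and 39.9 with indisulam, 27.0 and 31.8 with SPHINX31 and 49.8 and 49.2 with the combination. All 4 libraries with indisulam were above all 4 without it, and the SPHINX31 libraries overlapped the untreated ones. The log2 fold change was 0.68 with indisulam (SE 0.0838, edgeR adjusted p = 2.37e-05) and 0.89 with the combination (SE 0.0834, edgeR adjusted p = 1.45e-06), or 1.6-fold and 1.86-fold. With SPHINX31 alone it was 0.14 (95% interval -0.04 to 0.32, edgeR adjusted p = 0.338).

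CLK4, the closest paralog of CLK1 by sequence, had the lowest CPM of the 8 genes and the largest fold change among them. Its levels were 9.0 and 8.96 CPM in untreated cells, 17.9 and 17.7 with indisulam, 9.5 and 11.0 with SPHINX31 and 22.2 and 21.9 with the combination. The 4 libraries with indisulam again lay above the other 4, and those of the combination lay above those of indisulam alone. CLK4 rose 1.98-fold with indisulam (log2 fold change 0.99, SE 0.0803, edgeR adjusted p = 6.5e-07) and 2.46-fold with the combination (1.30, SE 0.0792, adjusted p = 2.96e-08). With SPHINX31 alone both libraries were above the untreated ones, by 0.20 on the log2 scale (95% interval 0.02 to 0.37), without passing the test (edgeR adjusted p = 0.172). The indisulam and combination calls of CLK1 and CLK4 against untreated cells held in 8 of 8 fits with 1 library left out.

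CLK3 rose with each compound and by more with both. It stood at 33.7 and 33.9 CPM in untreated cells, 42.6 and 42.9 with indisulam, 42.5 and 44.1 with SPHINX31 and 55.8 and 53.3 with the combination. The ranges of both single treatments lay above the untreated range and below that of the combination. The log2 fold changes were 0.34 with indisulam (SE 0.0554, edgeR adjusted p = 0.000281), 0.36 with SPHINX31 (SE 0.0552, adjusted p = 0.00168) and 0.69 with the combination (SE 0.0549, adjusted p = 3.3e-07). All 3 held in 8 of 8 fits with 1 library left out. CLK3 shares 701 exon bases with EDC3 on the opposite strand, which had 1728 to 2030 counts per library and log2 fold changes of 0.10, 0.06 and 0.16 in the same order. EDC3 passed the test with the combination (edgeR adjusted p = 0.0346), in the same direction as CLK3, and not with either compound alone. Whether the counting separated strands is not given in the sources used here.

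CLK2 moved the other way from CLK1, CLK3 and CLK4. Its levels were 46.3 and 48.3 CPM in untreated cells, 38.9 and 34.0 with indisulam, 37.7 and 40.4 with SPHINX31 and 37.6 and 32.7 with the combination. All 6 treated libraries were below both untreated libraries, and the indisulam range overlapped those of both other treatments. CLK2 fell by 0.37 on the log2 scale with indisulam (SE 0.0788, edgeR adjusted p = 0.00178) and by 0.43 with the combination (SE 0.0788, adjusted p = 0.000519), each in 8 of 8 fits with 1 library left out. With SPHINX31 it fell by 0.28 (SE 0.0784, edgeR adjusted p = 0.0452). That last call was lost without untreated replicate 1 (adjusted p = 0.137) or 2 (0.237) and without SPHINX31 replicate 1 (0.223) or 2 (0.0601), and also with library totals alone (0.0791).

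DYRK1A changed least among the genes that passed the test with indisulam. It stood at 36.7 and 37.4 CPM in untreated cells, 44.9 and 39.8 with indisulam, 38.6 and 39.5 with SPHINX31 and 40.7 and 42.7 with the combination. All treated libraries lay above both untreated ones. The log2 fold change was 0.19 with indisulam (SE 0.0648, edgeR adjusted p = 0.0278), 0.08 with SPHINX31 (95% interval -0.06 to 0.22, adjusted p = 0.517) and 0.17 with the combination (SE 0.0647, adjusted p = 0.0428). The indisulam call was lost without untreated replicate 1 (adjusted p = 0.137) or 2 (0.0877) and without indisulam replicate 1 (0.314), where the log2 fold change was 0.10; without indisulam replicate 2 it was 0.29. The combination call was lost without untreated replicate 1 (0.177) or 2 (0.113) and without combination replicate 1 (0.0533) or 2 (0.202), and also with DESeq2 (0.0609), with all genes of at least 1 count (0.0510) and with the replicate block (0.0583).

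PRPF4B rose with indisulam and with the combination. Its levels were 70.4 and 74.4 CPM in untreated cells, 96.1 and 84.2 with indisulam, 62.7 and 75.6 with SPHINX31 and 98.3 and 92.8 with the combination. The 4 libraries with indisulam were above the other 4, and the SPHINX31 libraries spanned the untreated ones. The log2 fold change was 0.32 with indisulam (SE 0.0828, edgeR adjusted p = 0.00713) and 0.40 with the combination (SE 0.0827, adjusted p = 0.00123), against -0.07 with SPHINX31 (95% interval -0.24 to 0.11, adjusted p = 0.682). The indisulam call was lost without untreated replicate 1 (adjusted p = 0.0595) or indisulam replicate 1 (0.0599), whereas that of the combination held in 8 of 8 such fits.

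**Figure D2:**
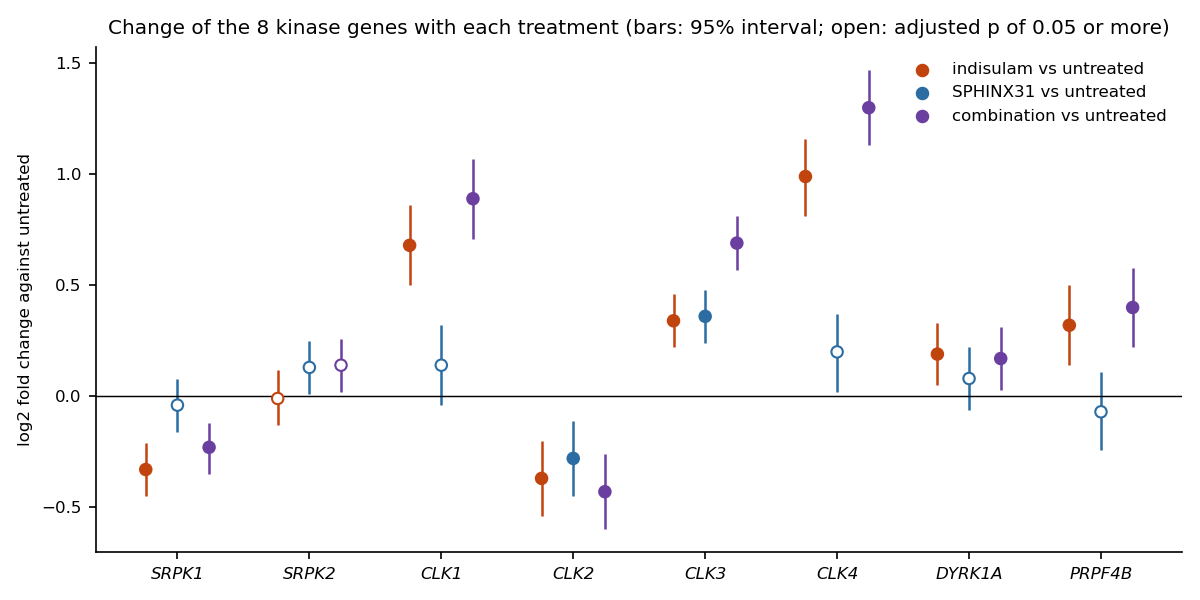
Log2 fold change against untreated cells (vertical axis) of the 8 kinase genes with indisulam, SPHINX31 and the combination; bars are 95% intervals from edgeR and filled points have an adjusted p under 0.05. CLK4 and CLK1 stand highest with indisulam (0.99 and 0.68), CLK3 is the gene above 0 with all 3 treatments filled, and CLK2 lies below 0 with all 3.

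Counted by comparison, SPHINX31 alone changed 2 kinase genes: CLK3 rose and CLK2 fell, where 8.61% of all tested genes passed, 4.94% as higher and 3.67% as lower. Of those genes 57.3% were higher, or 72.3% with library totals alone. With the combination 5 kinase genes rose (CLK1, CLK3, CLK4, DYRK1A and PRPF4B) and 2 fell (SRPK1 and CLK2), where 50% of all tested genes passed, 23.8% as higher and 26.3% as lower. The median log2 fold change over the kinase genes was 0.10 with SPHINX31 and 0.29 with the combination, against -0.01 and 0.00 over all tested genes. All 3 comparisons share the untreated libraries.

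The combination was also compared with each compound alone, to ask what adding the other compound did. Against indisulam alone CLK3 was higher by 0.35 on the log2 scale (SE 0.0545, edgeR adjusted p = 0.00197), in 8 of 8 fits with 1 library left out. CLK4 was higher by 0.31 (SE 0.0753, edgeR adjusted p = 0.0245), a call that was lost without indisulam replicate 1 (0.0868) or 2 (0.0850) and without combination replicate 1 (0.108) or 2 (0.110). The other 6 kinase genes did not pass, where 7.5% of all tested genes did, 3.17% as higher and 4.32% as lower. Of those genes 42.3% were higher in the combination, or 65.4% with library totals alone. The intervals of the differences that did not pass were -0.03 to 0.21 for SRPK1, 0.02 to 0.26 for SRPK2, 0.03 to 0.39 for CLK1, -0.23 to 0.12 for CLK2, -0.16 to 0.12 for DYRK1A and -0.09 to 0.26 for PRPF4B.

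Against SPHINX31 alone the combination had higher CLK4 (log2 difference 1.10, SE 0.0787, edgeR adjusted p = 1.33e-07), CLK1 (0.75, SE 0.0831, adjusted p = 7.25e-06), PRPF4B (0.47, SE 0.083, adjusted p = 0.000415) and CLK3 (0.33, SE 0.0544, adjusted p = 0.000212). SRPK1 was lower, with a log2 difference of -0.19 (SE 0.0554, edgeR adjusted p = 0.0112). That call was lost without SPHINX31 replicate 2 (adjusted p = 0.144, log2 difference -0.10) and without combination replicate 1 (0.0603) or 2 (0.0540). SRPK2, CLK2 and DYRK1A did not pass, and 49.9% of all tested genes passed in this comparison, 23.4% as higher and 26.5% as lower. The interaction asked whether the change with both compounds differed from the sum of the changes with each. Its log2 values ran from -0.10 for DYRK1A to 0.22 for CLK2 (SE 0.112, unadjusted p = 0.0669 in edgeR's quasi-likelihood test), and that of CLK3 was -0.00 (95% interval -0.17 to 0.16). With edgeR's quasi-likelihood test 0 of the 8 genes and 0 of all tested genes (0%) passed, 1584 of all tested genes (8.49%) had an unadjusted p under 0.05, and DESeq2 called 32 genes.

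Ratios between kinase genes within a library do not depend on how libraries are scaled to each other. The ratio of CLK1 to CLK2 counts was 0.551 and 0.576 in untreated cells, 1.17 and 1.17 with indisulam, 0.716 and 0.787 with SPHINX31 and 1.32 and 1.5 with the combination. CLK1 counts were thus below CLK2 counts in the 4 libraries without indisulam and above them in the 4 with it. The CLK4 to CLK2 ratio went from 0.194 and 0.185 in untreated cells to 0.46 and 0.522 with indisulam and 0.591 and 0.67 with the combination, with 0.252 and 0.273 under SPHINX31. The CLK3 to CLK2 ratio was 0.729 and 0.703 in untreated cells, 1.1 and 1.26 with indisulam, 1.13 and 1.09 with SPHINX31 and 1.48 and 1.63 with the combination. All 3 ratios were higher in every treated library than in untreated cells.

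Between the SRPK paralogs, SRPK1 counts were 2.29 and 2.21 times SRPK2 counts in untreated cells, 1.76 and 1.84 with indisulam, 1.9 and 2.1 with SPHINX31 and 1.76 and 1.71 with the combination. Every treated library was below the untreated ones, and SRPK1 stayed the more counted gene throughout. The ratio of CLK1 to CLK4 was 2.83 and 3.11 in untreated cells, 2.84 and 2.88 with SPHINX31, 2.55 and 2.25 with indisulam and 2.24 and 2.24 with the combination. These close paralogs therefore kept a narrower range of ratios than CLK1 and CLK2 did. With 2 libraries a group the smallest two-sided p of an exact permutation test of a single ratio is 0.333, so these ratios are given as values.

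**Figure D3:**
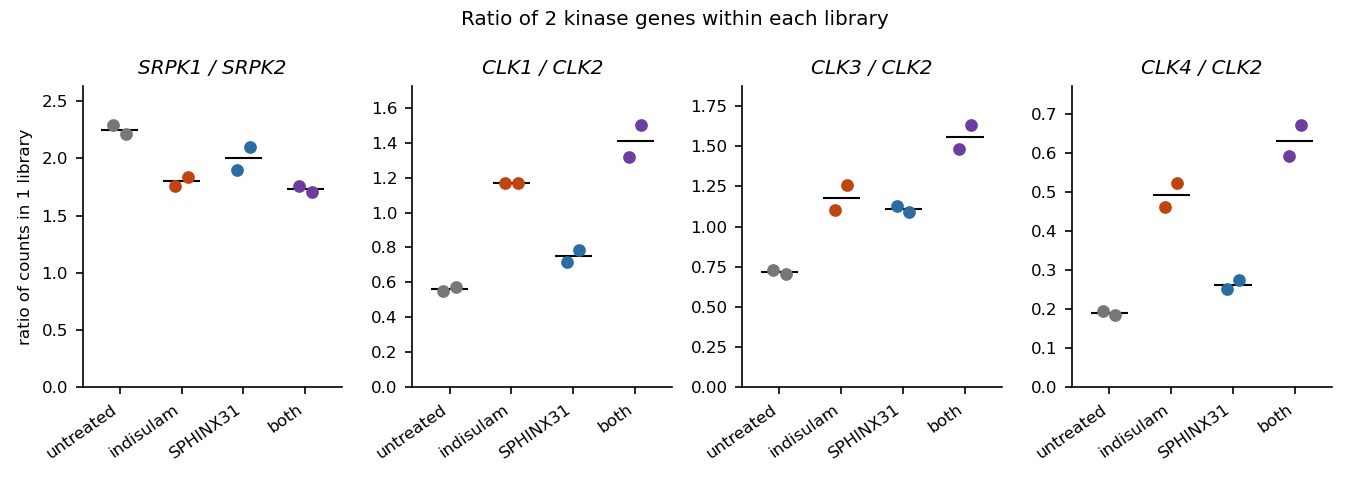
Ratio of the counts of 2 kinase genes within 1 library (vertical axes, starting at 0, no unit) for SRPK1 to SRPK2, CLK1 to CLK2, CLK3 to CLK2 and CLK4 to CLK2 in the 4 groups; points are libraries and bars the mean of 2. The 3 ratios over CLK2 are higher in all treated libraries than in untreated cells, and the SRPK1 to SRPK2 ratio is lower.

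The SR protein genes themselves, whose products the kinases phosphorylate, were compared as a list of the 12 genes SRSF1 to SRSF12. With indisulam 9 of 12 rose and 1 fell, where 20.1% of all tested genes rose and 23.5% fell, with a median log2 fold change of 0.28. SRSF1, a general splicing factor and a classical substrate of SRPK1, rose by 0.78 (SE 0.0514, edgeR adjusted p = 1.02e-07), SRSF3 by 0.45 (SE 0.0453, adjusted p = 4.2e-06) and SRSF4 by 0.41 (SE 0.0558, adjusted p = 5.88e-05). With the combination 7 of 12 rose and 1 fell, against 23.8% and 26.3% of all tested genes, and SRSF8 rose by 0.61 (SE 0.0563, edgeR adjusted p = 1.25e-06). With SPHINX31 0 of 12 rose and 2 fell, where 8.61% of all tested genes passed, and the median was -0.08.

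Kinases of the same CMGC group that are not among the 8 (14 genes of the SRPK, DYRK, HIPK and CDK families, 12 of them tested) were counted in the same way. With indisulam 1 rose, 1 fell and 10 did not pass, against 43.7% of all tested genes that passed, with a median of -0.04. CDK9, the kinase of the elongation factor P-TEFb, fell by 0.56 on the log2 scale (SE 0.065, edgeR adjusted p = 1.55e-05), and HIPK3 rose by 0.21 (SE 0.0626, adjusted p = 0.0154). With the combination 2 rose, among them CDK11B (0.31, SE 0.0669, edgeR adjusted p = 0.00171), and 4 fell, among them DYRK3 (-0.20, SE 0.067, adjusted p = 0.0248). These 6 of 12 stood at the 50% of all tested genes that passed. CDK11B has a near-identical neighbour, CDK11A, so its counts are uncertain. With SPHINX31 1 rose and 0 fell, against 8.61% of all tested genes that passed.

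Of 16 genes for chaperones and other partners of SRPK1, the import factor of SR proteins and phosphatases that act on them, 8 rose and 1 fell with indisulam, with a median of 0.12, where 43.7% of all tested genes passed. HSPA8, the constitutive HSP70 chaperone, rose by 0.70 (SE 0.0711, edgeR adjusted p = 4.35e-06). HSP90AA1, an HSP90 gene, and DNAJC8, a J-domain protein, each rose by 0.36 (SE 0.0829 and 0.0527, edgeR adjusted p = 0.00351 and 0.000109). With the combination 6 rose, among them the phosphatase gene PPP1CC by 0.39 (SE 0.051, edgeR adjusted p = 2.83e-05), and 2 fell, where 50% of all tested genes passed. With SPHINX31 0 rose and 3 fell, where 8.61% passed. Among those that fell were HSPA8, by 0.67 (SE 0.0712, edgeR adjusted p = 0.000107), and HSP90AA1, by 0.37 (SE 0.0829, adjusted p = 0.0137). Both had risen with indisulam. Taken without direction, the counts with indisulam and with the combination lay near the shares over all tested genes. By direction, 20.1% of all tested genes rose and 23.5% fell with indisulam, and 23.8% rose and 26.3% fell with the combination. In both comparisons the list thus held a larger share of rises and a smaller share of falls, which was not tested. The median over all tested genes was between -0.01 and 0.00 in these comparisons.

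**Figure D4:**
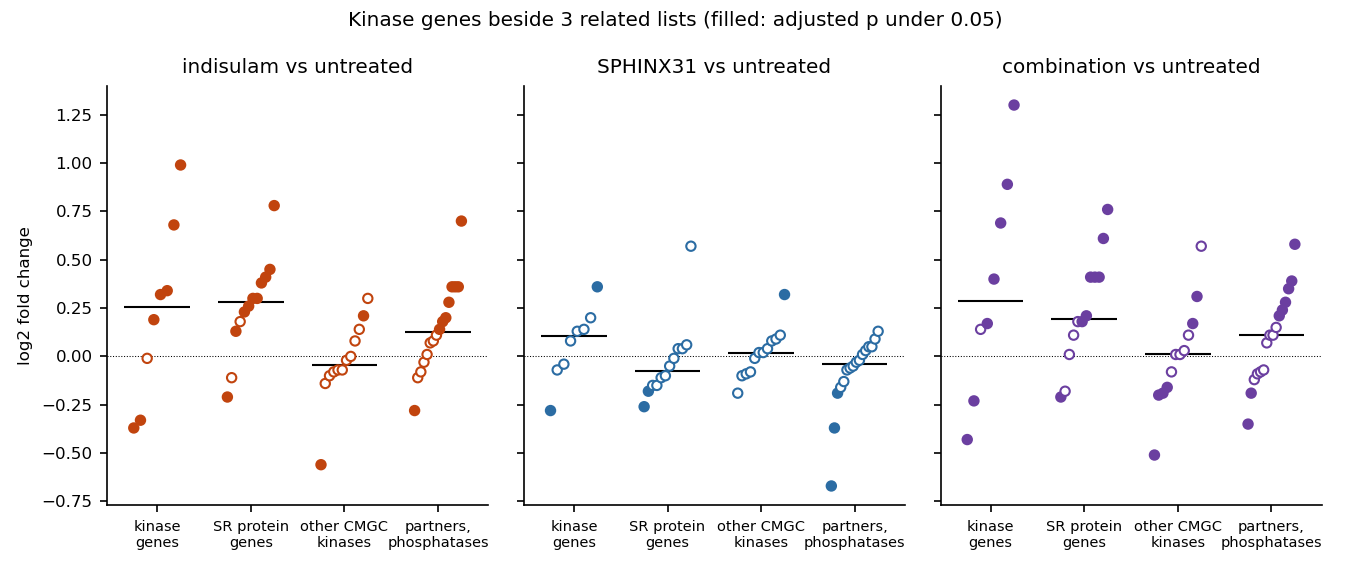
Log2 fold change against untreated cells (vertical axis, shared) of each tested gene of 4 lists, in 1 panel per treatment; filled points have an edgeR adjusted p under 0.05 and bars are list medians. The kinase genes span -0.37 to 0.99 with indisulam and -0.43 to 1.30 with the combination, the median of the other CMGC kinases stays near 0, and most points are open with SPHINX31.

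The genes whose pattern over the 8 libraries was most like that of SRPK1 were ABHD6, ARL3 and ZDHHC21. Likeness was the Euclidean distance between centred log2 CPM over the 8 libraries, among 9976 genes whose mean log2 CPM was 3 or more, and it was 0.0949, 0.12 and 0.121 for these genes. For CLK1 the nearest were ZNF75A (distance 0.139), ZNF300 (0.14) and SREK1 (0.177). Among the kinase genes alone CLK1 and CLK4 were each other's nearest (0.503), as were SRPK1 and CLK2 (0.329) and SRPK2 and DYRK1A (0.269). These distances cannot be set against those of the genes named above. Those genes were the nearest of 9976, whereas each kinase gene had only 7 others to be compared with.

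The 250 bases upstream of annotated starts were read for 7 of the 8 genes (RefSeq, GRCh38.p14), with 1 to 6 windows a gene. Annotated untranslated regions overlapped the windows of CLK1, CLK4 and SRPK1 and some of those of DYRK1A. By the bounds of the whole gene, the windows of CLK2, CLK3, CLK4 and SRPK2 lay inside the gene. Nearly all of the SRPK1 window did too. A window upstream of 1 start can therefore hold transcribed bases. 5 motifs were searched on both strands, with no threshold and after the changes of these genes were known. The motif TGACG reads CGTCA on the other strand. It was in a window of CLK1, CLK3, CLK4, DYRK1A and SRPK2 and in no window of SRPK1 or CLK2. Over all genes it was in 21.2% of 35097 windows of that length. This share counts windows, as do those that follow, so it cannot be set against a number of genes. GGGCGG was in a window of all 7 genes (42.6% of windows), CCAAT in CLK3 and DYRK1A (32%), TATAAA in DYRK1A (10.7%) and CACGTG in CLK2, CLK4 and DYRK1A (6.34%); overlaps between motifs were not removed. Genes with more windows have more chances of a match: TGACG was in 2 of 2 windows of CLK1, which overlap and hold the same 1 site, 1 of 2 of CLK3, 1 of 1 of CLK4, 1 of 6 of DYRK1A and 1 of 4 of SRPK2. The places in the 3 CLK genes that rose with indisulam are shown with 10 bases on each side and the motif in capitals, at chr2:200864693-200864717 (minus strand), chr15:74615782-74615806 (plus) and chr5:178627150-178627174 (minus).
CLK1: gcgctcgctgCGTCAtcagtgtttt
CLK3: gcgacggctgCGTCAcgcgaggggg
CLK4: cccgctcttaCGTCAcgtggagccc
All 3 matches read CGTCA on the strand of the gene, as did the 2 sites of DYRK1A, which are not shown. The site of SRPK2, also not shown, read TGACG. Binding to these places was not measured, and a match of 5 letters is a description only.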

How the data were processed

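Total RNA of 8 A549 samples was sequenced as stranded, polyadenylated, paired-end libraries. The deposited values are raw counts per Ensembl gene, and the submitters' processing notes name HISAT2 2.2.1, HTSeq and GRCh38; the strand setting and annotation are not given in the sources used here. Libraries were grouped by the treatment label. Genes were filtered with filterByExpr and tested with the quasi-likelihood method of edgeR (edgeR 4.0.16, R 4.3.3, TMM, all 8 libraries, 4 residual degrees of freedom), with Benjamini-Hochberg adjustment over all tested genes and a threshold of 0.05. The depth was 51727369 to 63186989 counts per library. Within each group the duplicates differed beyond Poisson error, with a chi-square of 6.6 to 10.7 over its degrees of freedom. Reads outside features, ambiguous or not unique stayed out of the library sizes. Positions, lengths and GC content came from GENCODE 44. For the per-kilobase levels CPM was divided by exon length. The test was checked on simulated data (indisulam against untreated, 18311 genes): 9, 36, 40 and 47 of 50 genes changed by 0.25, 0.5, 1 and 2 on the log2 scale were called, with 13 false calls.

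The kinase genes and all lists were chosen with earlier results of these data known. Named beside them are RBM39, at most 4 genes per list (past the threshold in indisulam or combination against untreated, average log2 CPM of at least 3, largest absolute change) and the 3 genes most like SRPK1 and CLK1. The alternatives tried were RLE size factors (edgeR), library totals alone, DESeq2 1.42.0, looser and stricter filters, only the groups compared, an adjusted p under 0.1, a replicate block, a GC offset over 50 bins and leaving out each library. A block with exchanged indisulam numbers and the canonical transcript length were added after the data were seen. No upstream window of PRPF4B was used.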

Additional observations from a re-analysis of the deposited data

Results flagged for a closer look

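The share of reads outside annotated features, which the comparisons did not use, was 5.48% and 4.49% in the indisulam libraries and 5.87% and 4.87% in the combination libraries, each above both untreated libraries (3.94% and 4.34%). The SPHINX31 libraries had 3.67% and 3.93%. The difference was not tested.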

How the results depend on the processing

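No called change of a kinase gene turned its direction under any alternative that was run, and sign changes below the threshold in both fits were counted as no change of call. Over the log2 fold changes of the 8 genes in 6 comparisons, 502 of the values under other settings kept their side of the threshold, 13 passed newly and 5 no longer passed; with 1 library left out these were 360, 4 and 20. The number of kinase genes called with the combination against untreated cells was 7 and lay between 6 and 8, as DYRK1A or SRPK2 crossed the threshold. The number with SPHINX31 was 2 and fell to 1 (CLK3 was left) with library totals alone and with the replicate block, and was 1 to 2 with 1 library left out. For the combination against indisulam it was 2, rose to 4 with the GC offset and with the GC offset plus block (SRPK2 and CLK1 added), and was 1 to 2 with 1 library left out. Counts over all genes moved more: with SPHINX31 from 1606 to 2688 (GC offset), 2642 (adjusted p under 0.1) and 482 to 1810 (1 library left out, with 482 and 539 without untreated replicate 1 or 2 and 697 without SPHINX31 replicate 1); for the combination against indisulam from 1399 to 2353 (GC offset), 2110 (GC offset with block), 2226 (adjusted p under 0.1) and 440 to 1612 (696 without indisulam replicate 1, 609 and 440 without combination replicate 1 or 2); for the interaction from 0 to 32 (DESeq2), 94 (genes with at least 1 count), 15 (GC offset) and 0 to 1. All kinase genes had at least 515 counts per library. The simulated test called 9 of 50 genes at a log2 change of 0.25. Its changed genes were drawn from all tested genes and were far fewer than those called with indisulam here. It therefore does not give the rate of detection for the kinase genes, of which SRPK1 was called at -0.23 with the combination. A group left with 1 library is assumed to vary like the others. The cause of these moves was not tested.

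The replicate numbers did not pair the samples in the same way across groups: deviations from the group means correlated between -0.582 (untreated and indisulam) and 0.457 (untreated and SPHINX31) over 9490 genes. For indisulam and SPHINX31 the value was -0.501, and pairs with the combination lay between 0.0189 and 0.178. The untreated, indisulam and SPHINX31 duplicates thus shared a direction of variation, with the indisulam numbers reversed. Its source was not tested. With the replicate block the genes called were 7851 with indisulam, 1330 with SPHINX31, 9077 with the combination, 1169 for the combination against indisulam, 9074 against SPHINX31 and 0 for the interaction; CLK2 with SPHINX31 (adjusted p = 0.0628) and DYRK1A with the combination (0.0583) no longer passed. Exchanging the 2 numbers in the indisulam group, added after the data were seen, gave 8952, 2630, 10014, 2252, 10005 and 12 genes in the same order.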
